A study of Homo sapiens with 8 samples.

Results

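The genes described here are 9 transcripts of the NRF2 antioxidant response: NFE2L2, GCLC, GCLM, TXNRD1, SRXN1, NQO1, HMOX1, AKR1C1 and AKR1B10. They were chosen by symbol, as the gene of the transcription factor and 8 genes commonly used to read its activity, and each symbol matched 1 of the 64253 gene identifiers in the count files. All 9 passed the filter on low counts, which left 20305 genes for testing. RNA was sequenced from 4 groups of human colon cancer cells with 2 replicates each. HCT-8 is a line sensitive to the antimetabolite 5-fluorouracil (5-FU), HCT-8/FU is a line derived from it that resists 5-FU, and both were grown in ordinary medium. In the other groups HCT-8 cells were cultured in conditioned medium (CM), which had been collected from HCT-8 or from HCT-8/FU after 48 h of growth. The group labelled CM of HCT-8 is called own CM here, the group labelled CM of HCT-8/FU is called FU CM, and both hold HCT-8 cells. The comparisons ask which transcripts differ between the resistant and the sensitive line, and which differ between sensitive cells that received medium of the resistant or of the sensitive line.

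The shared background of all groups is the HCT-8 line, and the resistant line stands for resistance through 1 cell line only. Whether 5-FU was present when the HCT-8/FU cells were harvested was not stated in the sources read, nor whether replicates were separate cultures. The p-values therefore measure only the spread between these samples, which may be technical. Counts on genes came to between 5804124 and 34881349 per library. In 3 libraries, HCT-8 replicate 1, HCT-8/FU replicate 2 and own CM replicate 1, between 20% and 29.6% of records were not aligned, against 3.58% to 4.43% in the other 5. These 3 were also the shallowest libraries, and FU CM holds none of them. Epithelial transcripts were abundant, with KRT8 at 4720 to 5870 CPM (counts scaled to the size of the library) and EPCAM at 298 to 502 CPM. KRT20 was lower, with group means from 5.29 CPM in HCT-8 to 14.5 CPM in HCT-8/FU. The leukocyte genes PTPRC and CD3E were at 0 in all 8 libraries, while CD68 had group means of 0.217 to 0.684 CPM. The fibroblast genes COL1A1 and PDGFRB had group means of 9.21 to 13.4 CPM and 4.57 to 7.86 CPM. The endothelial gene PECAM1 had group means of 1.16 to 1.57 CPM. These markers describe the cell type and were not used to identify the line.

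NRF2, the protein of NFE2L2, is held at a low level in unstressed cells by KEAP1, which passes it to a ubiquitin ligase for degradation. Electrophiles and oxidants modify KEAP1, and NRF2 then accumulates, pairs with a small MAF protein and binds antioxidant response elements (AREs) near its target genes. The targets make glutathione, reduce thioredoxin and quinones, break down haem, supply NADPH and clear reactive carbonyls. Several are also bound by BACH1, a haem-sensitive repressor that competes for the same elements, with HMOX1 as its best known target. The regulation of NRF2 by KEAP1 acts on the protein, so the level of NFE2L2 mRNA is not a measure of its activity.

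The element that joins these genes was looked for in the 1000 bases before each RefSeq start, as the letters TGACNNNGC on both strands. The set of RefSeq starts used here held 7 of the 9 genes, in 9 windows. HMOX1 and AKR1B10 were not in that set and were not scanned. Among all genes, 31.9% of 35116 windows of this length held the letters, so that a match alone is common. In 4 of the 7 genes 5 matches were found, and they are shown with 15 bases on each side, along the strand of the gene, with the matching letters in capitals.

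GCLM, chr1:93909441-93909479, minus strand, centre 30 bases before the start: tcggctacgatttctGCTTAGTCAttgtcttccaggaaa
TXNRD1, chr12:104215665-104215703, plus strand, centre 95 bases before the start: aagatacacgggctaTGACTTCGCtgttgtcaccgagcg
TXNRD1, chr12:104286915-104286953, plus strand, centre 98 bases before a second annotated start: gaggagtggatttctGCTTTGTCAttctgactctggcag
NQO1, chr16:69726992-69727030, minus strand, centre 451 bases before the start: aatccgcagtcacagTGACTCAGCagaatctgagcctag
GCLC, chr6:53545948-53545986, minus strand, centre 866 bases before the start: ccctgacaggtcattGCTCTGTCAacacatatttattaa

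Coordinates are of GRCh38. The match of NQO1 also holds TGACTCA, the letters of the AP-1 element, while the others do not. The windows of NFE2L2, SRXN1 and AKR1C1 held no match, which says only that these letters are not in the 1000 bases read. A match is a description of the letters and no evidence of binding. GCLM and TXNRD1, which had a match near the start, had different orders of levels over the 4 groups, as given in turn for each gene. Whether a match goes with the levels was not tested.

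**Figure D1:**
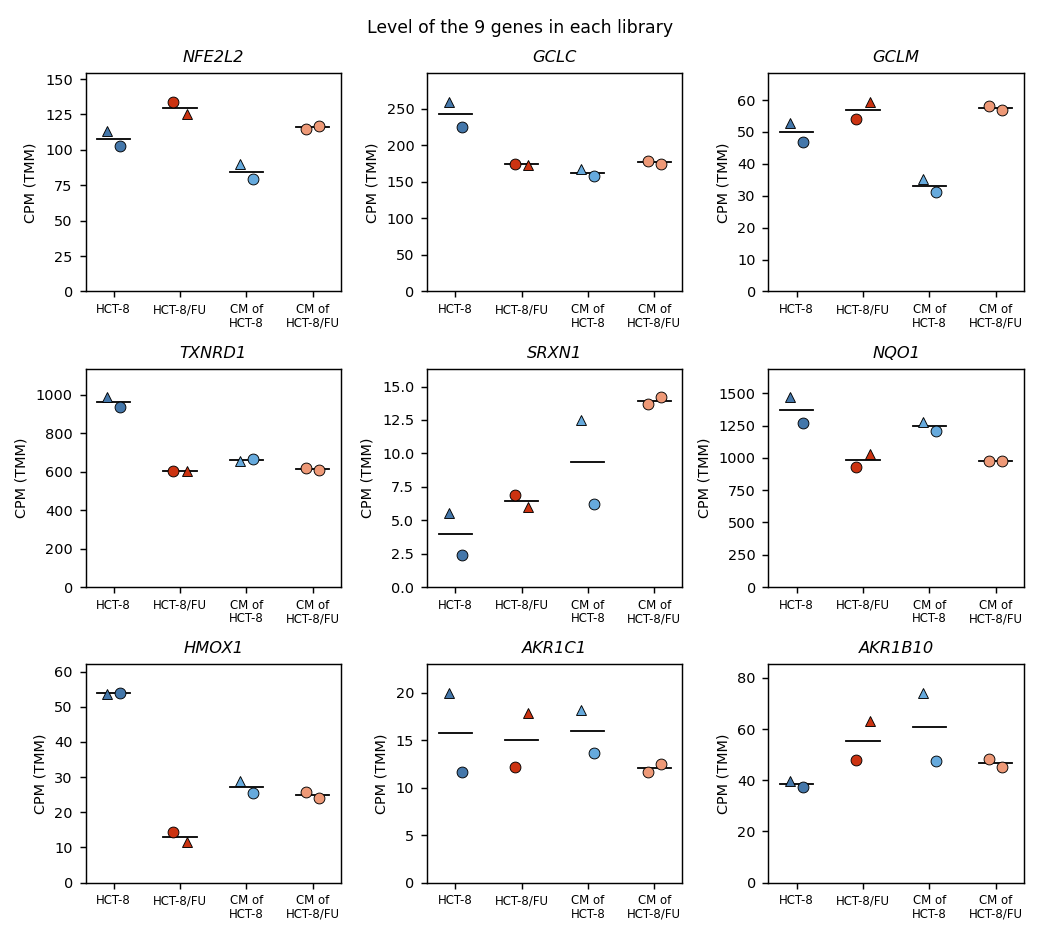
Level of each of the 9 genes in CPM after TMM normalization (vertical axes, from 0) in the 4 groups. Points are libraries, triangles mark the 3 libraries above 15% unaligned records, and bars are group means of 2 replicates; HMOX1 was highest in HCT-8 and lowest in HCT-8/FU, and TXNRD1 reached 937 CPM or more in HCT-8 only.

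Levels are given as CPM, and compared between genes only as CPM per kilobase of the main transcript. On that scale NQO1 was the most abundant of the 9 in HCT-8, at 543 ± 57.8 (SD, n = 2) CPM per kb, followed by TXNRD1 at 249 ± 9.4. GCLC stood at 64 ± 6.46, NFE2L2 at 44.2 ± 3.04, HMOX1 at 34.6 ± 0.21 and AKR1B10 at 23.8 ± 1.11 CPM per kb. GCLM, AKR1C1 and SRXN1 were the least abundant, at 10.2 ± 0.861, 2.42 ± 0.904 and 1.57 ± 0.877 CPM per kb. The place of SRXN1 is uncertain, because most of its exonic bases overlap another gene and reads there may not have been counted.

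A gene was called changed at an FDR of at most 0.05 with a change of at least 0.58 on the log2 scale, which is a 1.5-fold change and the threshold of the study. In HCT-8/FU against HCT-8, HMOX1 and TXNRD1 fell and no member rose. These 2 of 9 called genes stand beside 21.3% of all tested genes called in that comparison, 13.2% higher and 8.12% lower, so the share is near the background. In FU CM against own CM, GCLM alone was called, and it rose. The background there was 9.25%, with 7.97% higher and 1.28% lower. At the FDR alone, 6 of the 9 passed in the comparison of the lines, where 36.7% of all genes did, and 3 of the 9 passed in the comparison of the media, where 19.7% did. The median log2 fold change of the 9 genes was -0.07 between the lines and -0.11 between the media, against 0.0082 and -0.059 over all genes.

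Between own CM and HCT-8, where cells of the sensitive line differ in having received their own conditioned medium, HMOX1 and GCLM fell while SRXN1 and AKR1B10 rose. These are 4 of 9, where 8.15% of all genes were called, 3.86% higher and 4.29% lower. In FU CM against HCT-8, HMOX1 and TXNRD1 fell and SRXN1 rose, 3 of 9, where 10.4% of all genes were called, 7.16% higher and 3.28% lower. At the FDR alone, 7 of 9 passed in the first of these and 5 of 9 in the second, against 19.4% and 24.7% of all genes. Both comparisons, and that between the lines, use the same HCT-8 libraries, so their values are given side by side and are not independent of each other.

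**Figure D2:**
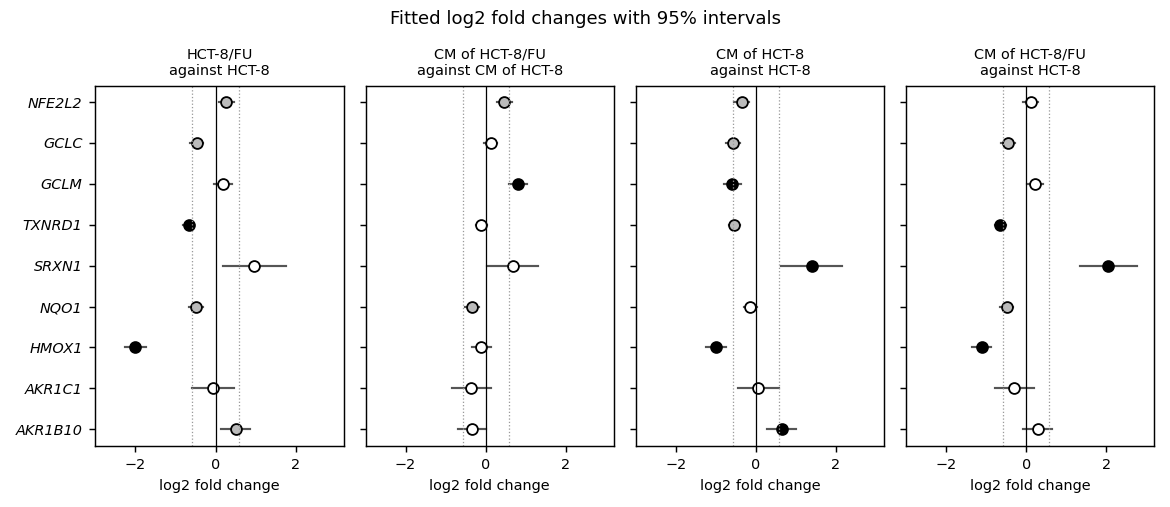
Fitted log2 fold changes (horizontal axes) of the 9 genes in 4 comparisons, with 95% intervals as lines. Black points passed the FDR and the fold threshold, grey points the FDR alone and white points neither, and dotted lines mark changes of 0.58; HMOX1 fell by 2.01 between the lines and was at -0.11 between the media.

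HMOX1 had the largest change of the 9 between the lines. Haem oxygenase 1 opens the haem ring and releases iron, carbon monoxide and biliverdin, and its gene lies at chr22:35380361-35394214 on the plus strand. It stood at 53.6 and 54 CPM in the replicates of HCT-8 and at 14.3 and 11.4 CPM in those of HCT-8/FU. It stood at 28.8 and 25.5 CPM in own CM, and at 25.9 and 24 CPM in FU CM. The resistant line was the lowest, both CM groups lay between the lines and overlapped each other, and the replicates of HCT-8 were nearly equal. In HCT-8/FU it fell by 2.01 on the log2 scale (SE 0.12, adjusted p = 2.7e-08 in the quasi-likelihood test of edgeR, with Benjamini-Hochberg adjustment), a level 4.02-fold lower.

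The fall of HMOX1 was also present in HCT-8 cells in either conditioned medium. Against HCT-8 it fell by 1.00 in own CM (SE 0.11, adjusted p = 3.9e-05) and by 1.11 in FU CM (SE 0.11, adjusted p = 7.2e-06). Between the media the log2 fold change was -0.11, with a 95% interval from -0.35 to 0.14 and an adjusted p of 0.58. HCT-8/FU lay lower than FU CM by 0.90 (adjusted p = 6.4e-04), in a comparison where 2.79% of all genes were called, and lower than own CM by 1.00 (adjusted p = 2.0e-05), where 20.2% were. The order was therefore HCT-8, then both CM groups, which did not differ beyond their spread, then HCT-8/FU. The change between the lines exceeded that between the media by 1.90 in the downward direction (-1.90, adjusted p = 5.6e-06 for the difference itself, where 7.69% of all genes were called). Without the 3 libraries with many records not aligned, the change between the lines was -1.92, from a single library of each line.

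HMOX2, the constitutive haem oxygenase, was between 37.7 and 56.2 CPM over the 8 libraries. Its log2 fold change was -0.18 between the lines (adjusted p = 0.26) and -0.31 between the media (adjusted p = 0.06). Neither passed the test, and in the comparison of the lines the libraries overlapped. The genes whose log2 levels followed HMOX1 most closely over the 8 libraries were ADGRG1, at a Pearson r of 0.999, and DDIT3, which encodes a transcription factor of the endoplasmic reticulum stress response, at 0.997. These coefficients describe 8 libraries in 4 groups, were the highest among 11687 candidate genes, and were not tested.

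Of the 5 tested genes of haem and iron, BLVRB, FTH1 and FTL fell between the lines, where 8.12% of all genes did. HMOX2 and BLVRA did not pass, and the median change of the 5 was -0.82. FTH1, the heavy chain of the iron store ferritin, was at 6540 and 6080 CPM in HCT-8 and at 2980 and 2960 CPM in HCT-8/FU. It fell by 1.09 (SE 0.07, adjusted p = 4.7e-08), and FTL, the light chain, fell by 0.82 (SE 0.09, adjusted p = 6.6e-06). BLVRB, a biliverdin reductase, fell by 1.00 (SE 0.10, adjusted p = 2.2e-06). The exons of BLVRB have 59.5% GC, those of FTL 56% and those of FTH1 49.5%. Levels in the HCT-8/FU libraries went down with GC content over all genes (Spearman rho -0.52 and -0.48). The changes of BLVRB, FTL and FTH1 were not examined with the GC and length correction. Of the exonic bases of FTH1, 63.2% lie opposite BEST1, and the strand setting of the counting was not stated in the sources read. Between the media 2 of the 5 passed the FDR, both under the fold threshold, and the median was -0.31.

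The subunits of glutamate-cysteine ligase, which makes the first bond of glutathione, did not move together. GCLC encodes the catalytic subunit (chr6:53497341-53616970, minus strand) and GCLM the modifier subunit, which raises its activity (chr1:93885199-93909456, minus strand). GCLC was at 260 and 225 CPM in HCT-8, 175 and 173 in the resistant line, 168 and 158 in own CM, and 179 and 175 in FU CM. The HCT-8 libraries lay above all others, and the remaining 6 spanned a narrow range. Against HCT-8 the log2 fold change of GCLC was -0.47 in HCT-8/FU (SE 0.08, adjusted p = 2.7e-04), -0.57 in own CM (adjusted p = 1.9e-04) and -0.45 in FU CM (adjusted p = 7.3e-04). All passed the FDR and stayed under the fold threshold. Without HCT-8 replicate 2 the first was -0.60 and was called, and the second was -0.74 and was called, as it also was at -0.61 without own CM replicate 1. The first was also called with the GC and length correction (-0.68), and the second under DESeq2 (-0.62), with its size factors (-0.62), with another TMM reference (-0.58) and without a filter (-0.59). Between the media GCLC was at 0.12 (95% interval -0.05 to 0.29, adjusted p = 0.33).

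GCLM was at 52.9 and 47 CPM in HCT-8, 54.2 and 59.5 in the resistant line, 35.3 and 31.1 in own CM, and 58 and 57 in FU CM. Cells in own CM stood apart from the rest, and the other groups lay close together. Between the media GCLM rose by 0.81 on the log2 scale in FU CM (SE 0.10, adjusted p = 3.8e-05), a 1.75-fold higher level, and this call held when any 1 library was left out. In own CM against HCT-8 it fell by 0.59 (SE 0.10, adjusted p = 0.0011). Between the lines it was at 0.19 (95% interval -0.03 to 0.41, adjusted p = 0.17). GCLM was also 0.78 higher in HCT-8/FU than in own CM (adjusted p = 3.1e-05). From low to high the order was own CM, then HCT-8, HCT-8/FU and FU CM, and no test separated the latter 3.

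Both GCLM calls were lost under the correction for GC content and length. The exons of GCLM have 38.6% GC, the lowest of the 9 genes. A gene's deviation from its mean level went with its GC content at a Spearman rho of 0.4 and 0.567 in own CM, -0.071 and -0.0657 in FU CM, 0.057 and 0.229 in HCT-8, and -0.52 and -0.48 in HCT-8/FU, over 19857 genes, which are not independent replicates. With GC content and length corrected for, the change of GCLM between the media was 0.30 (adjusted p = 0.15) and in own CM against HCT-8 it was -0.38 (adjusted p = 0.068). Neither was then called, and the change between the lines turned to -0.35 (adjusted p = 0.044). The correction takes out every change that goes with GC content, of whatever kind, and the part of base composition in these calls was not tested further. In own CM against HCT-8 the call was also lost without HCT-8 replicate 1, at -0.52, and without own CM replicate 2, at -0.48.

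The ratio of GCLC to GCLM counts was low in the resistant line and in cells that had received its medium. It was 4.91 and 4.79 in HCT-8 and 4.76 and 5.07 in own CM, against 3.23 and 2.91 in HCT-8/FU and 3.09 and 3.06 in FU CM. The ratio was thus lower in all 4 libraries of the resistant line or its medium than in the other 4. It was chosen after the values were seen and was not tested. With GC content and length corrected for, the log2 fold changes of GCLC and GCLM lay closer together, at -0.68 and -0.35 between the lines and at -0.06 and 0.30 between the media. In GCLC and GCLM, which make up this ratio, the change between the lines was below the change between the media, by 0.59 (-0.59, adjusted p = 0.003) and 0.62 (-0.62, adjusted p = 0.01). The difference in GCLC fell under the fold threshold without HCT-8 replicate 1 (-0.50), without own CM replicate 2 (-0.55), and in the 5 libraries with few records not aligned (-0.53). The difference in GCLM was no longer called without HCT-8 replicate 1 (-0.56), HCT-8/FU replicate 1 (-0.55), own CM replicate 2 (-0.53) or FU CM replicate 1 (-0.62, adjusted p = 0.053).

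NFE2L2 followed GCLM more than any other member did, with a Pearson r of 0.94 between their log2 levels over the 8 libraries. The gene of NRF2 lies at chr2:177218667-177392756 on the minus strand. It was at 113 and 103 CPM in HCT-8, 134 and 125 in the resistant line, 89.9 and 79.3 in own CM, and 115 and 117 in FU CM. As for GCLM, own CM held the lowest libraries, while HCT-8/FU held the highest. The log2 fold change was 0.27 between the lines (SE 0.09, adjusted p = 0.021), 0.46 between the media (SE 0.09, adjusted p = 0.0012) and -0.36 in own CM against HCT-8 (adjusted p = 0.0094), all under the fold threshold. HCT-8/FU exceeded own CM by 0.63 (adjusted p = 4.0e-05), while HCT-8/FU and FU CM differed by 0.17, with a 95% interval from -0.01 to 0.35. HCT-8 and FU CM differed by 0.11 (adjusted p = 0.41). With GC content and length corrected for, the first of these values was -0.12 and the second 0.06. Of the exonic bases of NFE2L2, 24.8% lie opposite exons of other genes and 13.6% overlap another gene on the same strand, so that its count is uncertain to that extent, since the strand setting of the counting was not stated in the sources read. The genes most like it over the 8 libraries were CPEB4, at a Pearson r of 0.994, and CCDC186, at 0.992.

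Of the 11 listed genes that control NRF2, 5 fell and 1 rose between the lines, where 8.12% of all genes fell and 13.2% rose. SQSTM1, the autophagy receptor that sequesters KEAP1, was at 2240 and 2370 CPM in HCT-8 and 1150 and 1080 CPM in HCT-8/FU, and fell by 1.05 (SE 0.06, adjusted p = 2.7e-08). The 3 small MAF genes, whose proteins pair with NRF2 or BACH1, fell together, MAFF by 0.97, MAFG by 0.93 and MAFK by 0.72, with adjusted p-values from 4.9e-07 to 1.3e-05. NFE2L1, a relative of NFE2L2, fell by 0.94 (adjusted p = 1.1e-07). The exons of the 5 genes that fell have 56.8% to 64.4% GC. In the HCT-8/FU libraries levels went down with GC content over all genes (Spearman rho -0.52 and -0.48). The changes of these 5 genes were not examined with the GC and length correction. MAFG and MAFK are named beyond the rule for named genes, after their values were seen. KEAP1 itself was at 83.4 to 104 CPM over the 8 libraries, with a log2 fold change of -0.22 between the lines (adjusted p = 0.04), under the fold threshold, and -0.12 between the media (adjusted p = 0.32).

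BACH1 was the gene of this group that rose, and it rose in both main comparisons. It was at 40.4 and 36.5 CPM in HCT-8, 66.5 and 65.9 in the resistant line, 23.6 and 24.7 in own CM, and 54.4 and 48.5 in FU CM. Each group was separate from the others. BACH1 rose by 0.80 between the lines (SE 0.10, adjusted p = 1.5e-05) and by 1.09 between the media (SE 0.10, adjusted p = 2.7e-06), where it was the only called gene of the 11. In own CM against HCT-8 it fell by 0.65 (adjusted p = 5.2e-04). The exons of BACH1 have 39.9% GC, near the 38.6% of GCLM. Its changes were not examined with the GC and length correction.

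TXNRD1 was lower in every group than in HCT-8. Thioredoxin reductase 1 is the selenoprotein that returns cytosolic thioredoxin to its reduced form with electrons of NADPH, and its gene lies at chr12:104215779-104350307 on the plus strand. It was at 988 and 937 CPM in HCT-8, 603 and 606 in the resistant line, 657 and 666 in own CM, and 618 and 611 in FU CM. The 6 libraries outside HCT-8 lay within a narrow band far below both libraries of HCT-8. TXNRD1 fell by 0.67 in HCT-8/FU (SE 0.06, adjusted p = 1.1e-06), a 1.59-fold lower level, and by 0.65 in FU CM against HCT-8 (SE 0.06, adjusted p = 6.5e-06). The latter was -0.57, under the fold threshold, with own CM replicate 2 as the reference of the normalization. In own CM the log2 fold change against HCT-8 was -0.54 (SE 0.06, adjusted p = 4.6e-05), just under the fold threshold, and it was called without HCT-8 replicate 2 (-0.65), under DESeq2 (-0.59) and with its size factors (-0.59).

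Between the media TXNRD1 was at -0.11 (95% interval -0.24 to 0.03, adjusted p = 0.28). The change between the lines differed from that between the media by -0.56 (adjusted p = 7.7e-04), past the FDR and just under the fold threshold. It was called at -0.58 to -0.69 under 7 alternatives, namely DESeq2, its size factors, no filter, the GC and length correction, and without HCT-8 replicate 2, own CM replicate 2 or FU CM replicate 2. The order of levels was HCT-8, then own CM, FU CM and HCT-8/FU, and no test separated the latter 3. GCLC was the member most like TXNRD1, with a Pearson r of 0.91 over the 8 libraries, followed by HMOX1 at 0.87 and NQO1 at 0.82. Among all candidates MTHFD2, an enzyme of mitochondrial folate metabolism, was closest, at 0.996, followed by SAT1, which acetylates polyamines, at 0.995.

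Of the 9 other genes of the thioredoxin and peroxiredoxin systems, 1 was called between the lines, and between the media 6 passed the FDR, all under the fold threshold. PRDX5, a peroxiredoxin, was at 180 and 164 CPM in HCT-8 and 106 and 113 CPM in HCT-8/FU, and fell by 0.66 (SE 0.09, adjusted p = 4.9e-05). The median of the list was 0.12 between the lines and -0.35 between the media. Of the 6 genes that supply NADPH, 2 fell between the lines. IDH1, the cytosolic isocitrate dehydrogenase, was at 558 and 510 CPM in HCT-8, 225 and 230 in the resistant line, 274 and 268 in own CM, and 270 and 269 in FU CM. It thus had the pattern of TXNRD1, high in HCT-8 alone, and fell by 1.23 between the lines (SE 0.07, adjusted p = 1.4e-08). TKT, the transketolase of the pentose phosphate pathway, fell by 0.59 (SE 0.07, adjusted p = 1.2e-05). The exons of PRDX5 have 60.6% GC, those of TKT 56.7% and those of IDH1 44.5%. The changes of PRDX5, TKT and IDH1 were not examined with the GC and length correction.

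SRXN1 was read from 36 to 438 counts per library. Sulfiredoxin 1 repairs overoxidized peroxiredoxins, and its gene lies at chr20:646615-653200 on the minus strand. It was at 5.53 and 2.39 CPM in HCT-8, 6.85 and 6.02 in the resistant line, 12.5 and 6.22 in own CM, and 13.7 and 14.2 in FU CM. HCT-8 was the lowest group and FU CM the highest, and the replicates of HCT-8 and of own CM were wide apart. In FU CM against HCT-8 it rose by 2.05 (SE 0.34, adjusted p = 4.2e-04), a 4.15-fold higher level. This call held when any 1 library was left out, with values from 1.33 without HCT-8 replicate 2 to 2.54 without HCT-8 replicate 1. In own CM against HCT-8 it rose by 1.39 (SE 0.36, adjusted p = 0.013), and this was 0.60 (adjusted p = 0.41) without HCT-8 replicate 2. It also missed the FDR under DESeq2 (1.23, adjusted p = 0.094), with only the groups compared (1.35, adjusted p = 0.058) and with the GC and length correction (1.26, adjusted p = 0.072).

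Between the lines SRXN1 was at 0.97 (SE 0.36, adjusted p = 0.051), and between the media at 0.67 (SE 0.30, adjusted p = 0.14), so neither passed. In the 5 libraries with few records not aligned these values were 1.51 and 1.17, and both were called, with the spread taken from the replicates of FU CM alone. SRXN1 was lower in HCT-8/FU than in FU CM by 1.09 (adjusted p = 0.032). With 1 library left out, the value between the lines ran from 0.22 without HCT-8 replicate 2 to 1.45 without HCT-8 replicate 1, and that between the media from 0.16 without own CM replicate 2 to 1.17 without own CM replicate 1. The first was called without HCT-8 replicate 1, own CM replicate 1 (1.00) or own CM replicate 2 (1.01), and the second without own CM replicate 1. Without a filter on low counts both were called, at 0.95 and 0.70. Both were also called with a term for the libraries with many records not aligned, at 1.06 and 1.02. The value between the lines was called with another TMM reference (1.06) and with only the groups compared (0.90). Of the exonic bases of SRXN1, 90.7% overlap ENSG00000270299, a gene annotated on the same strand. Reads over both could be set aside as ambiguous, and the level of SRXN1 is uncertain for that reason. ENSG00000270299 itself had 0 to 6 counts. LYSMD2 was most like SRXN1, at a Pearson r of 0.977.

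NQO1 was lower in the resistant line and in cells that had received its medium. NAD(P)H quinone dehydrogenase 1 reduces quinones in a single step and so avoids reactive semiquinones. Its gene lies at chr16:69706996-69726668 on the minus strand. NQO1 was at 1470 and 1270 CPM in HCT-8, 930 and 1030 in the resistant line, 1280 and 1210 in own CM, and 977 and 975 in FU CM. The libraries of HCT-8/FU and FU CM overlapped, as did those of HCT-8 and own CM, and the former all lay below the latter. Against HCT-8 the log2 fold change was -0.48 in HCT-8/FU (SE 0.08, adjusted p = 1.9e-04) and -0.49 in FU CM (adjusted p = 3.7e-04). Between the media it was -0.35 (SE 0.08, adjusted p = 0.0052). All passed the FDR and none reached the fold threshold, although the first was called at -0.61 and the second at -0.60 without HCT-8 replicate 2.

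HCT-8/FU and FU CM differed in NQO1 by 0.01, with a 95% interval from -0.16 to 0.18, and own CM and HCT-8 by -0.14, from -0.30 to 0.03. The changes between the lines and between the media differed by -0.13 (95% interval -0.37 to 0.11, adjusted p = 0.54). With GC content and length corrected for, NQO1 fell by 0.60 between the lines (adjusted p = 0.0063) and by 0.58 in FU CM against HCT-8 (adjusted p = 0.011). Between the media it was then at -0.41 (adjusted p = 0.095) and no longer passed the FDR. Of its exonic bases, 19.4% lie opposite ENSG00000261602, which stood at 147 to 236 CPM and was highest in the HCT-8 libraries, and without the strand of the counting the reads of the pair cannot be told apart. PSMB7, a subunit of the proteasome, was most like NQO1, at a Pearson r of 0.997, followed by the non-coding ZFAS1 at 0.991.

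The aldo-keto reductases reduce aldehydes and ketones with NADPH, and some of them were high in the libraries with many records not aligned. AKR1C1, a hydroxysteroid dehydrogenase (chr10:4963253-4983283, plus strand), was at 20 and 11.6 CPM in HCT-8, 12.2 and 17.9 in the resistant line, 18.2 and 13.7 in own CM, and 11.7 and 12.5 in FU CM. In each of the first 3 groups the higher replicate was the library with over 15% of records not aligned. The log2 fold change was -0.07 between the lines (95% interval -0.59 to 0.46, adjusted p = 0.87) and -0.36 between the media (95% interval -0.85 to 0.13, adjusted p = 0.31). No comparison of AKR1C1 passed the test, and both intervals reach below -0.58, so a fall past the fold threshold was not excluded at this depth and spread.

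AKR1B10, which reduces retinal and lipid aldehydes (chr7:134527567-134541412, plus strand), was at 39.8 and 37.2 CPM in HCT-8, 47.8 and 63.2 in the resistant line, 74.2 and 47.4 in own CM, and 48.2 and 45.3 in FU CM. HCT-8 was the lowest group, and the 2 highest libraries were again libraries above 15% unaligned records. In own CM against HCT-8 AKR1B10 rose by 0.64 (SE 0.17, adjusted p = 0.016). The value was 0.35 in the 5 libraries with few records not aligned, under the fold threshold, and it was not called without HCT-8 replicate 1 (0.67, adjusted p = 0.064), HCT-8 replicate 2 (0.52) or own CM replicate 1 (0.31). It also missed the FDR under DESeq2 (0.61, adjusted p = 0.1) and with the GC and length correction (0.57, adjusted p = 0.16). With a term for the libraries with many records not aligned it was 0.58 (adjusted p = 1.0e-03), past the FDR and just under the fold threshold. Between the lines it was at 0.50 (SE 0.17, adjusted p = 0.034), under the fold threshold, and called at 0.72 without HCT-8/FU replicate 1 and at 0.59 with another TMM reference. Between the media it was at -0.35 (adjusted p = 0.16), and at -0.66 and called without own CM replicate 2.

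The changes of AKR1B10 between the lines and between the media differed by 0.85 (SE 0.24, adjusted p = 0.031). In the 5 libraries the difference was 0.38, and it missed the FDR under DESeq2 (0.88, adjusted p = 0.12) and with the GC and length correction (0.86, adjusted p = 0.16). It was lost without each of 6 of the 8 libraries, with values from 0.50 to 0.89, the exceptions being HCT-8/FU replicate 1 and own CM replicate 2. Beyond the term for these libraries and the fit of the 5 libraries, the part of the unaligned records in these results was not tested.

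**Figure D3:**
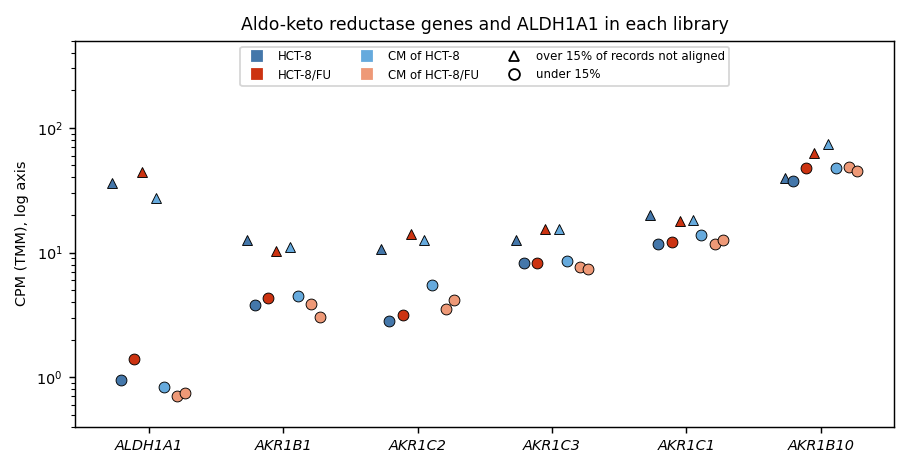
Levels of ALDH1A1 and 5 aldo-keto reductase genes in CPM (vertical log axis) in the 8 libraries, coloured by group. Triangles mark the 3 libraries above 15% unaligned records; they lie above the circles for ALDH1A1, AKR1B1, AKR1C2, AKR1C3 and AKR1C1, while for AKR1B10 only the triangles of HCT-8/FU and own CM do.

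AKR1C2, AKR1C3 and AKR1B1, relatives of these genes, were also higher in each of the 3 libraries than in each of the other 5. AKR1C2 was at 10.7, 14.2 and 12.5 CPM in the 3 libraries, in HCT-8, HCT-8/FU and own CM, and at 2.84 to 5.5 CPM in the other 5. AKR1B1, the aldose reductase, was at 12.6, 10.2 and 11 CPM in the 3 and at 3.05 to 4.48 CPM in the other 5. AKR1C3 was at 12.5, 15.4 and 15.4 CPM against 7.36 to 8.51 CPM. The 3 libraries came from 3 of the groups, and both libraries of FU CM were among the other 5. AKR1A1, AKR7A2 and AKR7A3, other listed members of the superfamily, did not show this split. AKR1A1, chosen after its values were seen, was at 107, 73.7 and 108 CPM in the 3 libraries and 83 to 115 CPM in the other 5. AKR1C4 had at most 2 counts and AKR1B15 at most 8 in a library, and neither was tested. None of AKR1C2, AKR1C3 and AKR1B1 passed the test between the lines or between the media. AKR1C1, AKR1C2 and AKR1C3 are close relatives in sequence, as are AKR1B10 and AKR1B15, and reads can be lost or moved between them in counting.

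ALDH1A1, the retinaldehyde dehydrogenase listed with the carbonyl enzymes, had the widest split. It was at 36.1, 44.3 and 27.3 CPM in the 3 libraries and at 0.706 to 1.4 CPM in the other 5, and the replicates of HCT-8 differed 38.1-fold. Of 12501 genes whose mean reached 5 CPM, AKR1B1 and ALDH1A1 were the only ones at least 2-fold higher in each of the 3 libraries than in each of the other 5, and 0 were lower to that extent. Of all tested genes, 1.86% were higher in the 3 than in the 5 without overlap and 2.42% were lower. The genes most like AKR1C1 over the 8 libraries were AKR1B1, at a Pearson r of 0.969, and AKR1C2, at 0.958. Those most like AKR1B10 were GLT8D1, at 0.972, and CTSC, at 0.970.

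**Figure D4:**
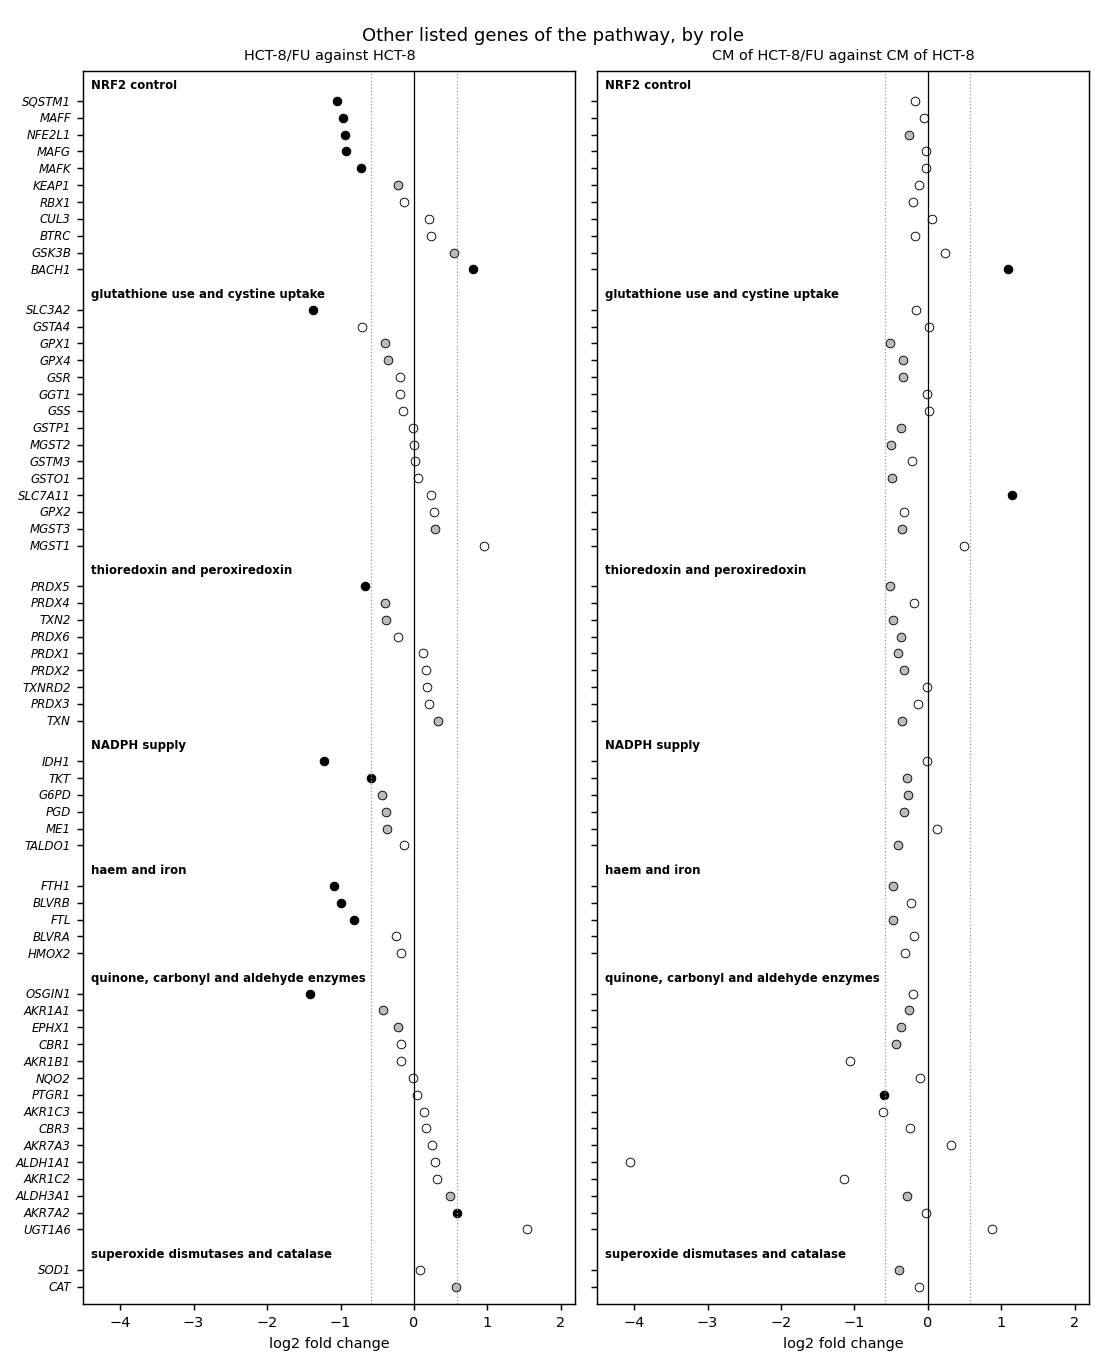
Log2 fold changes (horizontal axes) of 63 other listed genes of the pathway, 1 row per gene and grouped by role, between the lines (left) and between the media (right). Black points passed the FDR and the fold threshold, grey points the FDR alone and white points neither; 13 genes fell and 2 rose on the left, and 1 fell and 2 rose on the right.

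Over all 63 tested genes of the lists, 15 were called between the lines, or 23.8%, near the 21.3% of all genes. Of the 15, 13 fell and 2 rose, while of all genes 2677 rose and 1648 fell. The latter split turned to 1359 and 1607 with GC content and length corrected for. It was 3166 and 1192 with own CM replicate 2 as the reference of the normalization. The split of the listed genes under these settings is not given here. Between the media 3 were called, or 4.76%, and the median was -0.25, and 14 were called without own CM replicate 2. Of the 15 tested genes of glutathione use and cystine uptake, SLC3A2 was the one called between the lines. SLC3A2 is the heavy chain shared by several amino acid exchangers, among them the cystine importer, and SLC7A11 is the chain particular to that importer. SLC3A2 was at 869 and 915 CPM in HCT-8, 366 and 315 in the resistant line, 620 and 707 in own CM, and 601 and 584 in FU CM. It fell by 1.38 between the lines (SE 0.08, adjusted p = 2.3e-08), and both CM groups lay between the lines.

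SLC7A11 had another pattern, that of GCLM. It was at 247 and 238 CPM in HCT-8, 297 and 272 in the resistant line, 123 and 86.3 in own CM, and 233 and 221 in FU CM. Cells in own CM were thus low and all other groups high. SLC7A11 rose by 1.14 between the media (SE 0.12, adjusted p = 8.2e-06) and fell by 1.23 in own CM against HCT-8 (SE 0.12, adjusted p = 9.2e-06). Its exons have 35.4% GC, below the 38.6% of GCLM. In own CM levels went up with GC content over all genes (Spearman rho 0.4 and 0.567). The changes of SLC7A11 were not examined with the GC and length correction. Both chains were called in the difference between the main comparisons, SLC3A2 at -1.22 and SLC7A11 at -0.90.

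Of the 15 tested quinone, carbonyl and aldehyde enzymes and related targets, 1 fell and 1 rose between the lines. OSGIN1, an oxidative stress-induced growth inhibitor, was at 49 and 57.3 CPM in HCT-8, 21.1 and 18.4 in the resistant line, 34.8 and 32.7 in own CM, and 29.2 and 29.2 in FU CM. As for HMOX1, HCT-8 was the highest, HCT-8/FU the lowest and the CM groups were between them, and it fell by 1.41 between the lines (SE 0.11, adjusted p = 2.7e-07). AKR7A2, an aldehyde reductase, was at 59 and 62.4 CPM in HCT-8 and at 87.1 to 97.4 CPM in all other libraries, and rose by 0.59 between the lines (SE 0.09, adjusted p = 6.1e-05). The exons of OSGIN1 have 59.1% GC and those of AKR7A2 60%. The changes of OSGIN1 and AKR7A2 were not examined with the GC and length correction. PTGR1, which reduces unsaturated carbonyls, fell by 0.60 between the media (SE 0.12, adjusted p = 0.0028). Of the 2 tested genes among superoxide dismutases and catalase, 1 passed the FDR in each main comparison, under the fold threshold.

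In own CM against HCT-8, 5 of the 63 listed genes were called, or 7.94%, near the 8.15% of all genes, with IDH1 at -0.98, OSGIN1 at -0.68 and AKR7A2 at 0.62 beside BACH1 and SLC7A11. In FU CM against HCT-8, 8 were called, or 12.7%, against 10.4% of all genes, and 7 of the 8 fell. These included SQSTM1 at -0.63, NFE2L1 at -0.70, SLC3A2 at -0.59, FTH1 at -0.73, FTL at -0.58, IDH1 at -0.99 and OSGIN1 at -0.88, and AKR7A2 rose by 0.59. For 17 of the 63 genes, or 27%, the change between the lines differed from that between the media by the test of the difference, 11 of them in the direction of HMOX1, and 7.69% of all genes did so in either direction.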

How the data were processed

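RNA-seq was measured in 8 libraries. The deposited values are raw counts per gene, which the authors made with HISAT2 (GRCh38) and HTSeq 0.11.2 from an Ensembl gene set. The submitters' processing notes also name SAMtools 1.18 and DESeq2 1.30.0. The authors' own comparison tables, which hold fold changes and p-values, were not used. Lines naming no gene (no feature, 33.7% to 49.6% of records; ambiguous, 1.15% to 1.57%; low alignment quality, 2.2% to 5.77%; not aligned, 3.58% to 29.6%; more than 1 alignment, 2.24% to 3.48%) were left out of library sizes. Names, positions and GC contents came from GENCODE 44, also of GRCh38, where 56105 identifiers matched. SOD2 was not matched by identifier, and SLC40A1, AKR1B15 and AKR1C4 failed the filter, so that 63 of 67 other listed genes were tested. Promoter windows used RefSeq starts and the GRCh38 sequence.

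Counts were fitted with edgeR 4.0.16 in R 4.3.3 (TMM, filterByExpr, group means of 4 groups over all 8 libraries), and tested with edgeR's quasi-likelihood method. P-values were adjusted after Benjamini and Hochberg over the 20305 genes, and a standard error is the size of the log2 fold change over the root of F. Replicates differed by more than the sampling noise (median chi-square 1.02 to 2.3 per gene, against 0.455 from sampling) and were kept apart. CPM per kb used the length of the canonical transcript. On simulated data for HCT-8/FU against HCT-8 the fit recovered 80% of 100 genes changed by 1 on the log2 scale and 90% of 100 changed by 2. There were 12 false calls among 19332 genes. The simulation changed only 200 genes, equally up and down, and held no trend with GC content and no effect of unaligned records. In the data 21.3% of genes were called, so the simulation does not give the false calls there.

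Members and lists were chosen with earlier results of these data known. Named beside the 9 members are their relatives and KEAP1, up to 3 called genes of largest change per list in each main comparison, genes behind counts of 3 or fewer, and the 2 genes of highest Pearson correlation with each member (mean over 8 libraries of 5 CPM or more). Alternatives were DESeq2 1.42.0 and its size factors, another TMM reference, no filter or a mean count of at least 10, only the groups compared, a replicate block, a GC and length correction (spline with 5 degrees of freedom) with and without it, a term for the 3 libraries above 15% unaligned records, the FDR alone, and each library left out. A fit of the 5 libraries under 15% and a crossed block were added after the data were seen. The fit of the 5 libraries has replicates in FU CM only, so its values rest on single libraries of the other groups.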

Additional observations from a re-analysis of the deposited data

Results flagged for a closer look

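For 4 of the 9 genes, and for TXNRD1 at the FDR alone, the change between the lines (HCT-8/FU against HCT-8) differed from that between the media (FU CM against own CM) by edgeR's test of the difference with Benjamini-Hochberg adjustment. Of all genes 7.69% passed both thresholds in that test and 11.6% the FDR alone. The difference was -1.90 on the log2 scale in HMOX1 (adjusted p = 5.6e-06). It was -0.62 in GCLM (adjusted p = 0.01), -0.59 in GCLC (adjusted p = 0.003) and -0.56 in TXNRD1 (adjusted p = 7.7e-04), the last past the FDR alone. In AKR1B10 it was 0.85 (adjusted p = 0.031), 0.38 in the 5 libraries with under 15% of records not aligned, 0.88 under DESeq2 (adjusted p = 0.12) and 0.86 with the GC and length correction (adjusted p = 0.16). It was not called without each of 6 of the 8 libraries.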

How the results depend on the processing

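Of 486 values of 45 fold changes under alternatives other than leaving out single libraries, 425 kept direction and side of the threshold, 20 lost and 25 gained a call, and 16 turned. Counts that moved are given next. With the FDR alone, 6 members were called between the lines, 3 between the media, 7 in own CM and 5 in FU CM against HCT-8, and listed genes rose to 30 and 28 in the main comparisons. Another TMM reference gave 4 members between the lines. The split of all genes into higher and lower moved from 1454 and 666 to 1856 and 430 in FU CM against HCT-8 with that reference and to 693 and 1063 with the GC and length correction, from 783 and 872 to 617 and 1088 in own CM against HCT-8 with DESeq2's size factors, and from 1619 and 259 to 398 and 458 between the media with the correction. Without a filter, 2 members and 5 listed genes were called between the media, and 2 members with a term for the unaligned records or in the 5 libraries, where the difference kept 2. The GC and length correction gave 4 members between the lines, 0 between the media and 1 in own CM against HCT-8, with or without the replicate block, and 5 listed genes between the media. With the block it left 2 in the difference.

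Values turned under that correction. Between the lines NFE2L2 was -0.12 and GCLM -0.35 (-0.13 and -0.35 with the replicate block), and between the media GCLC was -0.06 and HMOX1 0.04 (-0.06 and 0.03). In FU CM against HCT-8, NFE2L2 was -0.10 and GCLM -0.08 (-0.10 and -0.08). AKR1C1 turned to 0.02 between the lines with another TMM reference, to 0.06 between the lines and 0.06 in FU CM against HCT-8 in the 5 libraries, and to -0.02 in own CM against HCT-8 under DESeq2. Apart from the effect of the correction on GC trends, which its construction gives, the cause was not tested.

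With 1 library left out, the members called ranged from 2 to 4 between the lines, 1 to 2 between the media, 2 to 4 in own CM against HCT-8, 3 to 4 in FU CM against HCT-8 and 1 to 4 in the difference. Listed genes ranged from 14 to 16 between the lines and from 2 to 14 between the media, the 14 without own CM replicate 2. AKR1C1 ranged from -0.52 to 0.28 between the lines, -0.43 to 0.41 in own CM and -0.73 to 0.06 in FU CM against HCT-8, and -0.22 to 0.64 in the difference, where SRXN1 ranged from -0.51 to 0.85. A lone sample left in a group is assumed to vary like the other groups.

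Replicate numbers are shared across groups, and deviations of same-numbered libraries correlated at -0.138 to 0.167. These values cannot decide whether the numbers pair libraries. With 2 replicates each group gives 1 deviation, and the libraries with many records not aligned bear different numbers in different groups. The replicate block left the counts of members at 2, 1, 4, 3 and 4 and of listed genes at 15 and 3. With the numbers of HCT-8/FU crossed, which correlated at -0.103 with HCT-8, members were 3 between the lines and 2 between the media, and listed genes 15 and 7. The shallowest library, of 5804124 counts, held 36 counts of SRXN1.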
